A study of Mus musculus with 2 samples.

Results

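The genes described are *Runx1*, *Runx2*, *Runx3* and *Cbfb*, the mouse Runx transcription factors and their shared partner. They were taken by symbol from the gene list of the study and are 4 of its 27998 genes. Their transcripts were followed across the cell types of healing mouse skin, and in wound fibroblasts in which Hedgehog (Hh) signaling had been forced on. The data are droplet RNA sequencing of single dermal cells from wounds, small ones by the study's account, with 1 control library and 1 *SM22-SmoM2* library. Control mice carried *SM22rtTA; tetO-Cre; R26-Tomato*, and *SM22-SmoM2* mice carried *SM22rtTA; tetO-Cre; R26-SmoM2/Tomato*. In both, the *SM22α* (*Tagln*) promoter drives rtTA, doxycycline then turns on Cre, and Cre turns on the red protein Tomato. In *SM22-SmoM2* mice Cre also turns on SmoM2, a permanently active form of the Hh transducer Smoothened. Both groups were 4 to 5 weeks old, received doxycycline at 20 g/kg from day 1 after wounding, and were sampled 3 days after the wound surface had closed. The labels carry the doxycycline on to the day of sampling. Tomato+ cells were sorted after removal of the epidermis, and wounds of several mice were pooled into each library.

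Runx proteins bind DNA through the Runt domain, and CBFβ, the product of *Cbfb*, does not bind DNA itself but stabilises that binding. Runx1 is known for its part in making blood stem cells and, in skin, in hair follicle cells, Runx2 is the master regulator of bone-forming cells, and Runx3 acts in T cells, dendritic cells and sensory neurons. Each *Runx* gene can be read from an upstream and a downstream promoter. Egfl6, used below to divide the fibroblasts, is a secreted matrix protein.

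The 4 genes lie on 4 chromosomes of the mouse build GRCm38. *Runx1* (ENSMUSG00000022952) lies at chr16:92601466-92826149 on the minus strand and *Runx2* (ENSMUSG00000039153) at chr17:44495987-44814797 on the minus strand. *Runx3* (ENSMUSG00000070691) lies at chr4:135120652-135177990 and *Cbfb* (ENSMUSG00000031885) at chr8:105170674-105217989, both on the plus strand. RefSeq promoter windows of 300 bases (GRCm38.p6) were at hand for 2 promoters each of *Runx1* and *Runx3* and for 1 each of *Runx2* and *Cbfb*. The upstream windows of *Runx1* and *Runx3* and the *Runx2* window shared an 18-base stretch, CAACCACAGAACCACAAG, the longest present in all 3 genes, which holds 2 copies of ACCACA, the letters to which Runx proteins are known to bind (TGTGGT on the other strand). The search for it was added after the windows had been seen. It is shown in 30 bases of each promoter, with both copies in capitals, because it is what the *Runx* family shares in sequence at its own start sites:
Runx1 (chr16:92826026-92826055, minus strand): tcataaacaACCACAgaACCACAagttggg
Runx2 (chr17:44814584-44814613, minus strand): tcacaaacaACCACAgaACCACAagtgcgg
Runx3 (chr4:135120502-135120531, plus strand): ggtccctcaACCACAgaACCACAaggccag
The stretch begins 26 bases after the start site in *Runx1*, 21 bases after it in *Runx2* and 136 bases before it in *Runx3*. It was found in 4 of 32851 promoter windows on either strand (0.0122%), and the other one is that of *Gm16225*, which overlaps the upstream *Runx3* window on the opposite strand. At least 1 copy of TGTGGT or ACCACA was present in 5506 windows (16.8%) and at least 2 in 595 (1.81%). The downstream windows of *Runx1* and *Runx3* and the *Cbfb* window held none. The Gli letters GACCACCCA or TGGGTGGTC, bound by the factors that end the Hh pathway, stood in 83 windows (0.253%) and in none of these 6, which says only that they are not in these windows. The reads come from the 3′ ends of transcripts and do not tell which promoter was used.

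Each value is a number of unique molecular identifiers (UMIs), 1 per captured transcript, divided by all UMIs of the cells compared and given per 1000000 (CPM). Capture differs between genes, so levels are compared between cells for 1 gene and not between genes. Each condition is a single library, so replicate spread is unknown and nothing was tested. All intervals are 95% intervals for counting error only. After filtering, 2856 control and 1792 *SM22-SmoM2* cells were kept, with medians of 8607.5 and 8837.5 UMIs per cell. Cells were clustered without the 4 genes, and clusters were named from lineage markers. The main classes were fibroblast-like (1053 control and 1098 *SM22-SmoM2* cells), endothelial-like (701 and 270), Schwann-like (679 and 294), mural-like, resembling cells of vessel walls (270 and 94), and immune-like cells (81 and 33). In fibroblast-like cells the Hh targets *Ptch1* and *Gli1* stood at 12.2 and 5.71 CPM in the control and 147 and 33.2 CPM in the *SM22-SmoM2* library. The matrices number their cells without barcodes, so barcodes shared between the libraries could not be counted.

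*Runx1* was detected in every lineage and was low in endothelial-like cells. In the control library its level was 185 CPM (173 to 198) in Schwann-like, 179 CPM (172 to 187) in fibroblast-like and 175 CPM (156 to 195) in mural-like cells. These 3 levels did not separate, with log2 ratios of fibroblast-like over Schwann-like of -0.05 (-0.16 to 0.07) and over mural-like cells of 0.04 (-0.13 to 0.21). Immune-like cells followed at 118 CPM (93.7 to 146) and endothelial-like cells at 25 CPM (21.7 to 28.7). In the *SM22-SmoM2* library fibroblast-like cells stood first at 237 CPM (229 to 246), against 168.5 CPM (151 to 187) in Schwann-like cells. Mural-like cells had 163 CPM (130 to 201), immune-like cells 161 CPM (123 to 208) and endothelial-like cells 30.3 CPM (23.7 to 38.1). The fibroblast-like level now exceeded the Schwann-like one by 0.50 on the log2 scale (0.33 to 0.66).

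*Runx2* had its highest levels in fibroblast-like and Schwann-like cells. Fibroblast-like cells held 28.3 CPM (25.5 to 31.2) in the control and 40.4 CPM (36.9 to 44.1) in the *SM22-SmoM2* library, and Schwann-like cells 25.4 CPM (21.1 to 30.4) and 26.8 CPM (20.1 to 34.9). The control levels of these classes did not separate (log2 ratio 0.15, -0.15 to 0.46). Mural-like cells had 15.6 and 15 CPM, from 29 and 8 UMIs, and immune-like cells 12.9 and 16.4 CPM, from 9 and 6 UMIs. Endothelial-like cells were lowest at 2.56 CPM (1.59 to 3.92) and 3.78 CPM (1.73 to 7.18). Antisense transcripts and *Supt3* overlap the *Runx2* locus on the other strand, none of them over its last exon.

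*Runx3* had its highest level in immune-like cells of both libraries. In the *SM22-SmoM2* library it was also found in a part of the fibroblast-like cells, unevenly between the sub-clusters described below. Immune-like cells had 105 CPM (82.2 to 132) and 104 CPM (73.6 to 143), from 73 and 38 UMIs. Fibroblast-like cells had 3.18 CPM (2.31 to 4.27) in the control, from 44 UMIs in 38 of 1053 cells, and 25.5 CPM (22.8 to 28.4) in the *SM22-SmoM2* library, from 318 UMIs in 182 of 1098 cells. Schwann-like cells stayed at 4.24 CPM (2.59 to 6.55) and 5.95 CPM (3.07 to 10.4). Endothelial-like cells held 5 and 1 UMIs and mural-like cells 1 and 0, where 0 UMIs allow up to 6.90 CPM. Nearly all immune-like cells were myeloid rather than lymphoid: 78 of 81 control and 32 of 33 *SM22-SmoM2* cells had more UMIs of myeloid than of T and NK cell markers, with *Runx3* at 105 CPM in both libraries. The control immune-like cluster led by *Cd74* and *H2-Aa*, genes of antigen presentation, had 157 CPM (118 to 206) in 39 cells, and the one led by *Lyz2* and *C1qb*, macrophage genes, 57.4 CPM (35.6 to 87.8) in 42 cells. In the *SM22-SmoM2* library they had 193 CPM (88.2 to 366) in 4 cells and 90.9 CPM (60.9 to 131) in 29 cells, so the pooled immune-like levels come from unlike mixtures.

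*Cbfb* was present in all lineages with a narrower span. Schwann-like cells stood highest at 126 CPM (116 to 136) in the control and 137 CPM (122 to 154) in the *SM22-SmoM2* library, followed by fibroblast-like cells at 103 CPM (97.3 to 108) and 103 CPM (97.3 to 109). Endothelial-like cells had 51 and 55.1 CPM, and immune-like cells 44.5 and 43.8 CPM. Mural-like cells had 34.5 CPM (26.5 to 44.0) and 48.6 CPM (31.8 to 71.3), and the immune-like and mural-like intervals overlapped in both libraries.

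**Figure D1:**
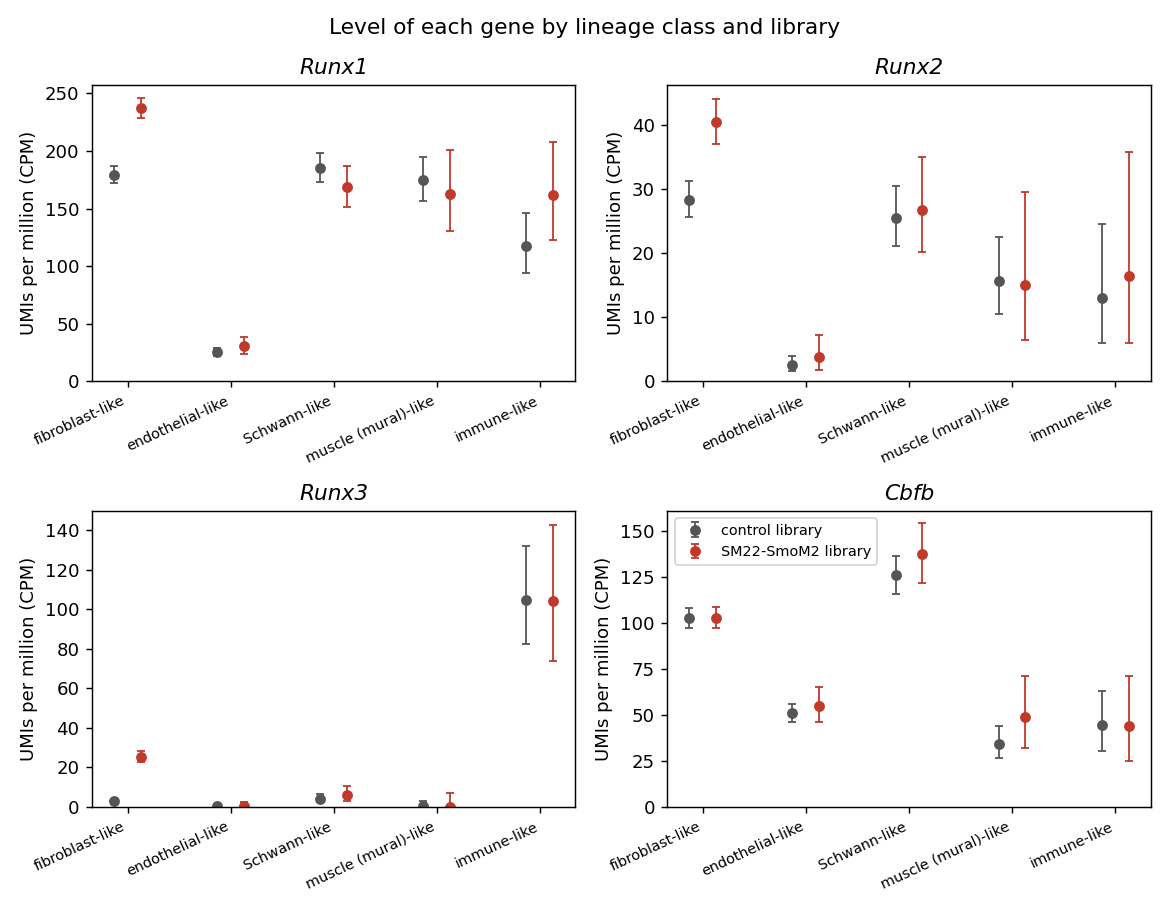
Level of each gene (CPM, y axis) in 5 lineage classes (x axis) of the control (grey) and *SM22-SmoM2* (red) library, as points with 95% intervals for counting error. *Runx3* was near 105 CPM in immune-like cells of both libraries and went from 3.18 to 25.5 CPM in fibroblast-like cells.

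Set against all other named lineages of the same library, fibroblast-like cells were higher for *Runx1* by 0.88 (0.78 to 0.97) in the control and 1.15 (1.02 to 1.29) in the *SM22-SmoM2* library on the log2 scale. For *Runx2* the log2 ratios were 1.28 (1.02 to 1.54) and 1.48 (1.13 to 1.84), and for *Cbfb* 0.53 (0.41 to 0.64) and 0.27 (0.12 to 0.43). *Runx3* changed sides, at -1.02 (-1.57 to -0.50) in the control and 1.41 (0.98 to 1.86) in the *SM22-SmoM2* library. The control value depends on the 81 immune-like cells, which held 73 of the 102 *Runx3* UMIs of the other lineages. Taken singly in the control, the *Runx3* ratio was -5.04 over immune-like, -0.41 (-1.21 to 0.43) over Schwann-like, 2.38 (1.05 to 4.07) over endothelial-like and 2.56 (0.01 to 7.90) over mural-like cells. Thus 2 of the 4 genes lay past a 2-fold ratio in the control and 3 in the *SM22-SmoM2* library. The same was true of 33.2% of 12376 and 25.7% of 11300 genes with at least 50 UMIs.

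The comparison of the *SM22-SmoM2* with the control library asks what goes with Hh activation in the wound dermis. In fibroblast-like cells *Runx3* was 8.01-fold higher, a log2 ratio of 3.00 (2.54 to 3.49), which placed it 60th from the highest of 11489 genes. It was the 1 member of 4 past a 2-fold ratio, as were 9.87% of genes with at least 50 UMIs, 5.02% of them higher. *Runx2* had a log2 ratio of 0.51 (0.32 to 0.71) and *Runx1* of 0.40 (0.33 to 0.48), both above 0 by more than counting error and under 2-fold. *Cbfb* stood at 0.00 (-0.11 to 0.11), while the median over all genes was -0.07. With each cell thinned to 1500 UMIs, a *Runx3* UMI was present in 0.475% of control and 4.83% of *SM22-SmoM2* fibroblast-like cells. Endothelial-like cells, which held 5 and 1 *Runx3* UMIs before thinning, then had it in 0 of 701 and 0 of 270 cells. At so low a level, few or none were to be expected after thinning. Their median depths were 9413 and 7262.5 UMIs against 12703 and 10947.5 in fibroblast-like cells. The thinned shares were 21.2 and 27.1% for *Runx1*, 3.42 and 5.74% for *Runx2* and 14.6 and 13.4% for *Cbfb*.

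The other lineages of the same libraries did not show such a ratio for *Runx3*, with -0.01 (-0.62 to 0.57) in immune-like and 0.49 (-0.68 to 1.59) in Schwann-like cells. The immune-like ratio is pooled over the unlike mixtures of clusters given above. In these 2 lineages and in endothelial-like and mural-like cells no member with a ratio lay past 2-fold, while 9.33, 3.02, 2.21 and 4.11% of genes with at least 50 UMIs did. Some members fell under that limit. They were *Runx2* in endothelial-like, mural-like and immune-like, *Runx3* in endothelial-like and Schwann-like and *Cbfb* in immune-like cells. Their intervals, except that of *Cbfb*, reached past 2-fold, for *Runx3* in endothelial-like cells from -6.10 to 2.62. *Runx1* had log2 ratios of 0.27 (-0.13 to 0.67) in endothelial-like, -0.14 (-0.32 to 0.05) in Schwann-like, -0.10 (-0.46 to 0.24) in mural-like and 0.45 (-0.05 to 0.95) in immune-like cells. The endothelial-like ratio is pooled over clusters with unlike *Runx1* levels. Cluster 13, the highest and described at the end, had 97 of 701 control and 49 of 270 *SM22-SmoM2* cells. The part of this mixture in the ratio was not tested. *Runx2* ratios ran from -0.06 in mural-like to 0.56 in endothelial-like cells and *Cbfb* ratios from -0.03 in immune-like to 0.50 in mural-like cells, and all of their intervals held 0. Mural-like cells gave no *Runx3* ratio, with 1 UMI in the control and 0 in the *SM22-SmoM2* library.

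**Figure D2:**
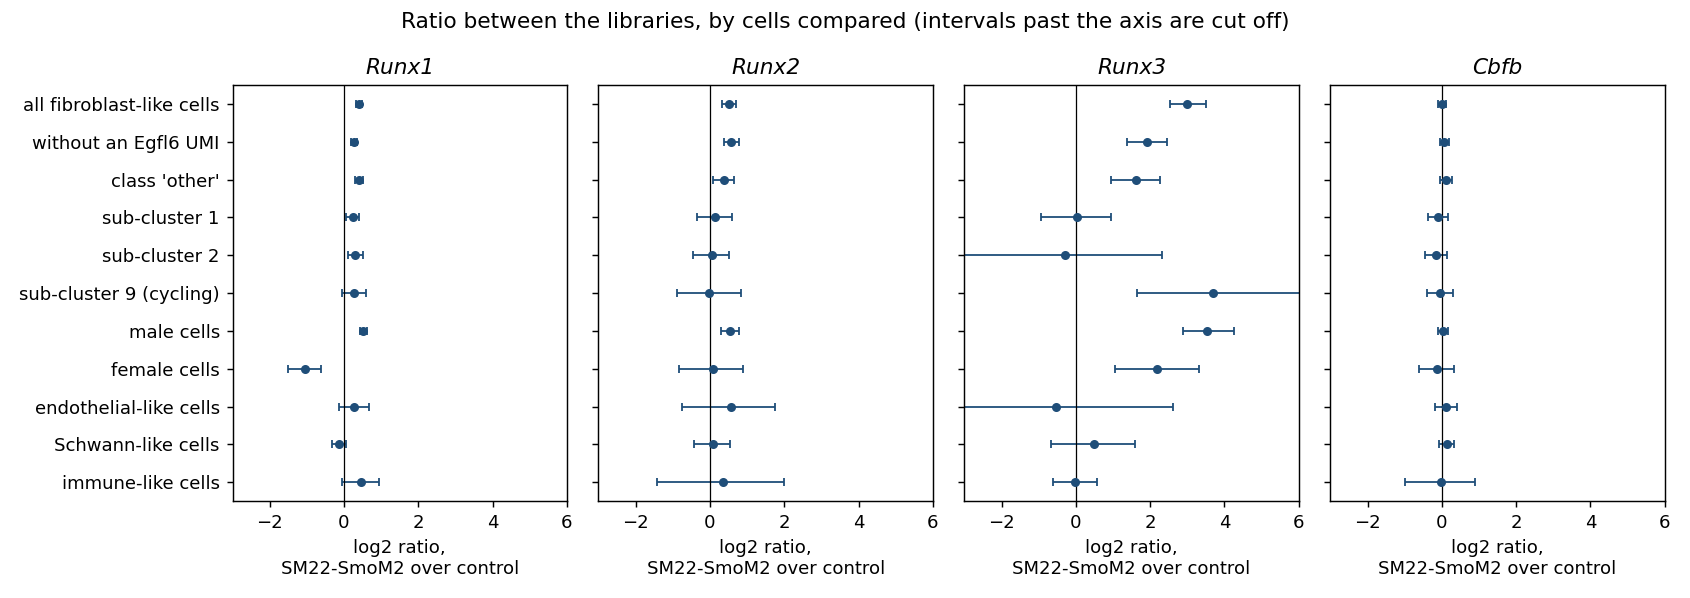
The log2 ratio of each gene, *SM22-SmoM2* over control library (x axis), for the cells named on the left, with 95% intervals for counting error. *Runx3* lay at 3.00 in all fibroblast-like cells and at 0.04 within sub-cluster 1, and *Runx1* lay on opposite sides of 0 in male (0.52) and female (-1.06) cells.

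The *Runx3* UMIs of the libraries lay in different cells. In the control, immune-like cells held 49.0% of them (73 of 149) with 2.84% of the cells, and fibroblast-like cells 29.5% (44 of 149). In the *SM22-SmoM2* library, fibroblast-like cells held 86.2% (318 of 369) with 61.3% of the cells, and immune-like cells 10.3% (38 of 369). Fibroblast-like cells with an *Egfl6* UMI alone held 55.6% of them (205 of 369) with 17.3% of the cells. For *Runx1* the fibroblast-like share was 60.6% in the control and 83.7% in the *SM22-SmoM2* library, for *Runx2* 66.6 and 86.4%, and for *Cbfb* 55.0 and 73.9%, where fibroblast-like cells held 45.9 and 70.0% of all UMIs.

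**Figure D3:**
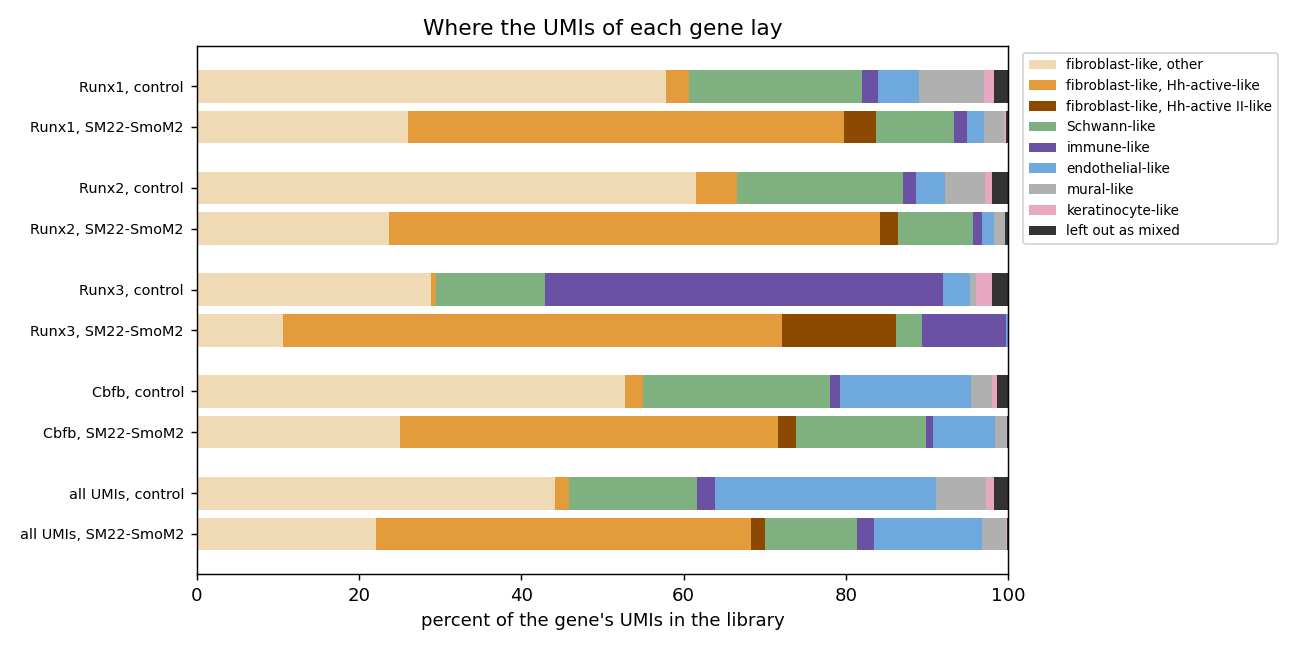
Percent of each gene's UMIs in a library (x axis) that lay in each class of cells (colours), for both libraries, with all UMIs at the bottom. Immune-like cells held 49.0% of the control *Runx3* UMIs and 10.3% of those of the *SM22-SmoM2* library.

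Fibroblast-like cells were divided into 15 sub-clusters, of which 3 with markers of other lineages (57 control and 2 *SM22-SmoM2* cells) were left out. Sub-clusters with at least 3 of 5 Hh target markers raised, *Gli1* and *Ptch1* among the 5, were called Hh-active-like. One of them that also had 12 of 12 dermal papilla markers raised was called Hh-active II-like, the dermal papilla being the cells that induce a hair follicle. Control cells were 94.9% other and 5.13% Hh-active-like. *SM22-SmoM2* cells were 28.9% other, 66.9% Hh-active-like (735 cells) and 4.19% Hh-active II-like (46 cells). The last class depended on the clustering, since Leiden clustering put 309 *SM22-SmoM2* and 9 control cells in it, with *Runx3* at 84.5 CPM (73.9 to 96.1) and *Runx1* at 298 CPM (278 to 319). *Runx3* was at 9.92 CPM (7.06 to 13.6) in the other, 27.6 CPM (24.1 to 31.4) in the Hh-active-like and 166 CPM (124 to 218) in the Hh-active II-like cells of the *SM22-SmoM2* library. The 54 Hh-active-like cells of the control held 1 *Runx3* UMI. Pooled over each class, *Runx3* was thus higher at each step, with log2 ratios of 1.47 (0.98 to 2.0) and 2.59 (2.13 to 3.03). The first step was not seen without sub-cluster 6, described below, with sub-cluster 9 counted among the other cells. Of the 39 *Runx3* UMIs of the other *SM22-SmoM2* cells, 22 lay in sub-cluster 9, where *Ptch1* was at 181 CPM. The step with sub-cluster 9 set apart was not tested. No other member lay past 2-fold in either step, as did 12.1 and 29.2% of genes. *Runx1* did not separate between other and Hh-active-like cells (234 and 231 CPM, log2 ratio -0.02, -0.13 to 0.10) and reached 444 CPM (373 to 524) in Hh-active II-like cells. *Runx2* was at 35.1, 42.9 and 41.5 CPM and *Cbfb* at 110, 98.4 and 125 CPM in the 3 classes, with no step beyond counting error.

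The Hh-active-like class was not uniform. Sub-cluster 6, led by *Egfl6*, *Fam212a* and *Sox11*, had 158 *SM22-SmoM2* and 2 control cells. Its *Runx3* level was 106 CPM (90.5 to 124), with a UMI in 50.6% of its *SM22-SmoM2* cells, and its *Runx1* level 426 CPM (394 to 460). Against the rest of the class these were log2 ratios of 3.49 (3.07 to 3.94) and 1.20 (1.06 to 1.33). That rest, 577 cells, had *Runx3* at 9.42 CPM, next to 9.92 CPM in the *SM22-SmoM2* cells of the class called other, sub-cluster 9 included. Cycling markers were also raised in sub-clusters 5 and 6, 4 of 5 in each, and their part in the *Runx3* level was not tested. *Runx3* was 7th among the 10 genes with the highest fold in sub-cluster 6 although it had been kept out of the clustering. Sub-cluster 5, led by *Ifitm1*, *Penk* and *Tnmd*, a tendon gene, had 22.8 CPM (16.1 to 31.3) of *Runx3* and only 108 CPM (92.8 to 125) of *Runx1*. Sub-cluster 3, led by *Sfrp5*, *Cldn1* and *Ccdc3*, had 2.06 CPM (0.67 to 4.81) and 106 CPM (93.8 to 120). Sub-cluster 4, led by *Areg*, an EGF-receptor ligand, *Srxn1* and *Mt2*, was the *Runx2*-high one. It had 68.9 CPM (59.2 to 79.8) of *Runx2*, a log2 ratio of 1.16 (0.85 to 1.47) over the rest of the class, with 311 CPM of *Runx1* and 7.70 CPM of *Runx3*. The ratios over the rest of the class were each taken for the highest of the 4 sub-clusters. The share of all genes past 2-fold was not counted for them. *Cbfb* ran only from 87.3 to 102 CPM across these 4 sub-clusters of the *SM22-SmoM2* library.

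Where both libraries had at least 30 cells in the same sub-cluster outside the Hh-active classes, *Runx3* differed in 1 of 3. Sub-cluster 1, led by *Crabp1*, *Mmp11* and *Prss35*, had 9.38 CPM (6.5 to 13.1) in 292 control and 9.63 CPM (5.39 to 15.9) in 127 *SM22-SmoM2* cells, and it held 34 of the 44 *Runx3* UMIs of control fibroblast-like cells. Sub-cluster 2, led by *Mmp3*, *Ctla2a* and *Mmp13*, had 1.81 and 1.47 CPM, from 5 and 2 UMIs. The cycling sub-cluster 9, led by *Gm26870*, *Ube2c* and *Ccnb1*, had 1.82 CPM (0.22 to 6.57) in 58 control and 23.3 CPM (14.6 to 35.2) in 70 *SM22-SmoM2* cells. This was a log2 ratio of 3.68 (1.65 to 6.81) from 2 and 22 UMIs. Its class was set on both libraries together. *Ptch1* stood at 1.82 CPM in its control and 181 CPM (155 to 210) in its *SM22-SmoM2* cells, and *Egfl6* at 2.73 and 208 CPM. In sub-clusters 1 and 2 *Ptch1* was at 16.0 and 19.1 CPM in *SM22-SmoM2* cells. In those of sub-clusters 3, 4, 5 and 6 it was at 271, 112, 202 and 138 CPM. The part of Hh activity in the *Runx3* difference was not tested. Outside the Hh-active classes and without sub-cluster 9, the *Runx3* ratio was 0.76 (-0.15 to 1.61), from 17 and 41 UMIs. This ratio pooled unlike mixtures. Sub-clusters 7, 8, 10 and 11 had 152, 127, 82 and 62 control cells but 0, 5, 0 and 3 *SM22-SmoM2* cells. *Runx3* was at 0.86 CPM in control cells of sub-cluster 7 and not seen in the others. Within sub-clusters 1 and 2 the *Runx3* ratios were 0.04 and -0.30. The part of the mixture was not tested. *Runx1* was higher in the *SM22-SmoM2* cells of sub-clusters 1 and 2, by 0.24 (0.07 to 0.40) and 0.31 (0.10 to 0.51), and in sub-cluster 9 the ratio was 0.27 (-0.07 to 0.60). In sub-cluster 3 it went the other way, with 220 CPM (173 to 276) in 34 control and 106 CPM in 207 *SM22-SmoM2* cells. *Runx2* and *Cbfb* did not separate between the libraries in sub-clusters 1, 2 and 9. In sub-cluster 3 *Runx2* was also lower in *SM22-SmoM2* cells, at 27.6 CPM (21.4 to 35.1) against 64.6 CPM (40.5 to 97.8) in control cells. These values came from 67 and 22 UMIs. *Cbfb* was there at 99.7 CPM (87.6 to 113) and 117 CPM (83.9 to 160), with intervals that overlapped.

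**Figure D4:**
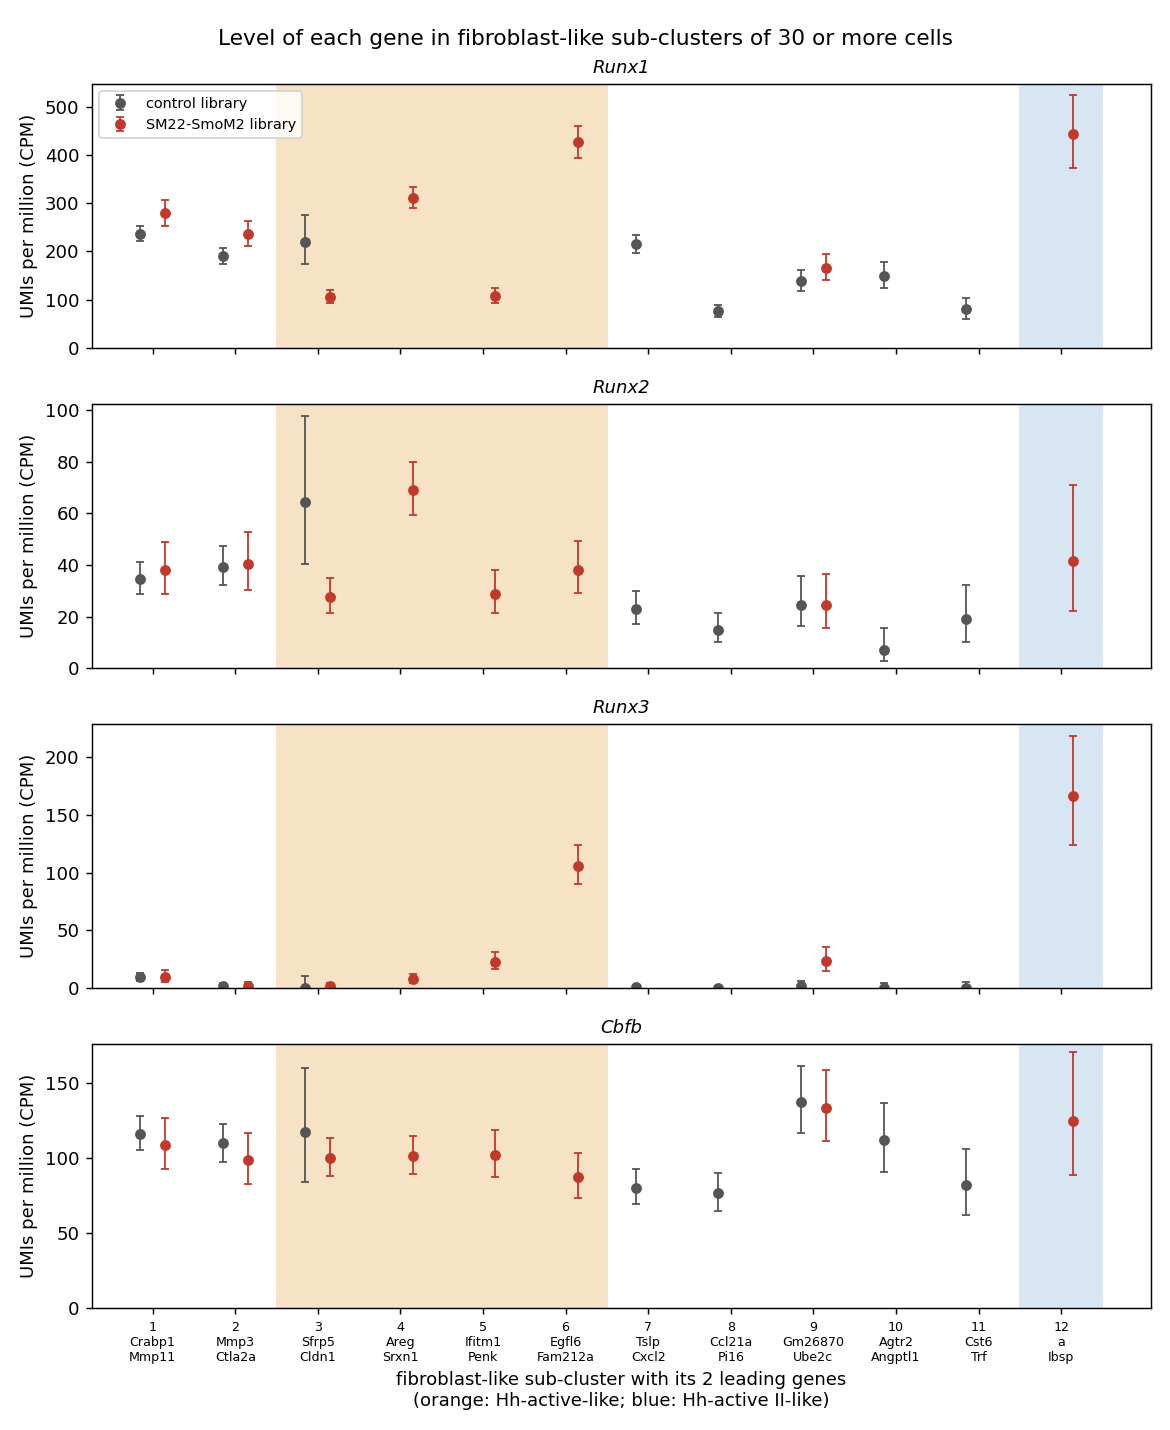
Level of each gene (CPM, y axis) in the fibroblast-like sub-clusters (x axis, with leading genes) that held at least 30 cells of a library, with 95% intervals for counting error. *Runx3* was at 106 CPM in sub-cluster 6 and 166 CPM in the Hh-active II-like sub-cluster 12 and at most 23.3 CPM in every other one shown.

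Of the *SM22-SmoM2* fibroblast-like cells, 310 (28.2%) had at least 1 *Egfl6* UMI. *Runx3* was at 61.0 CPM (52.9 to 69.9) in these and 12.4 CPM (10.2 to 14.9) in the 788 without, from 205 and 113 UMIs. The log2 ratio of 2.30 (1.96 to 2.64) placed it 18th from the highest of 10030 genes, and it was the 1 member past 2-fold, as were 6.15% of genes. *Runx1* was higher with *Egfl6*, at 284 CPM (266 to 303) against 220 CPM (211 to 230), a log2 ratio of 0.37 (0.25 to 0.48). *Runx2* and *Cbfb* were lower, at 33.9 against 42.8 CPM (log2 ratio -0.33, -0.65 to -0.03) and 87.5 against 109 CPM (-0.31, -0.50 to -0.12). Cells with *Egfl6* were not deeper, with a median of 9760.5 UMIs against 11447.5. In the control, 38 fibroblast-like cells had an *Egfl6* UMI and none of them a *Runx3* UMI, which allows up to 6.68 CPM. *Runx1* was lower in those 38 cells, at 121 against 182 CPM (log2 ratio -0.58, -0.96 to -0.23).

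The levels did not climb evenly with *Egfl6*. From 0 to 1, 2 to 4, and 5 or more *Egfl6* UMIs per cell, *Runx3* stood at 12.4, 49.3, 47.8 and 75.1 CPM, so that most of the difference lay between 0 and 1 UMI. *Runx1* stood at 220, 225, 219 and 355 CPM, and was raised in the 147 cells with 5 or more. *Runx2* (42.8, 32.5, 31.1 and 36.3 CPM) and *Cbfb* (109, 81.8, 95.7 and 86.6 CPM) were highest in cells without *Egfl6*.

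**Figure D5:**
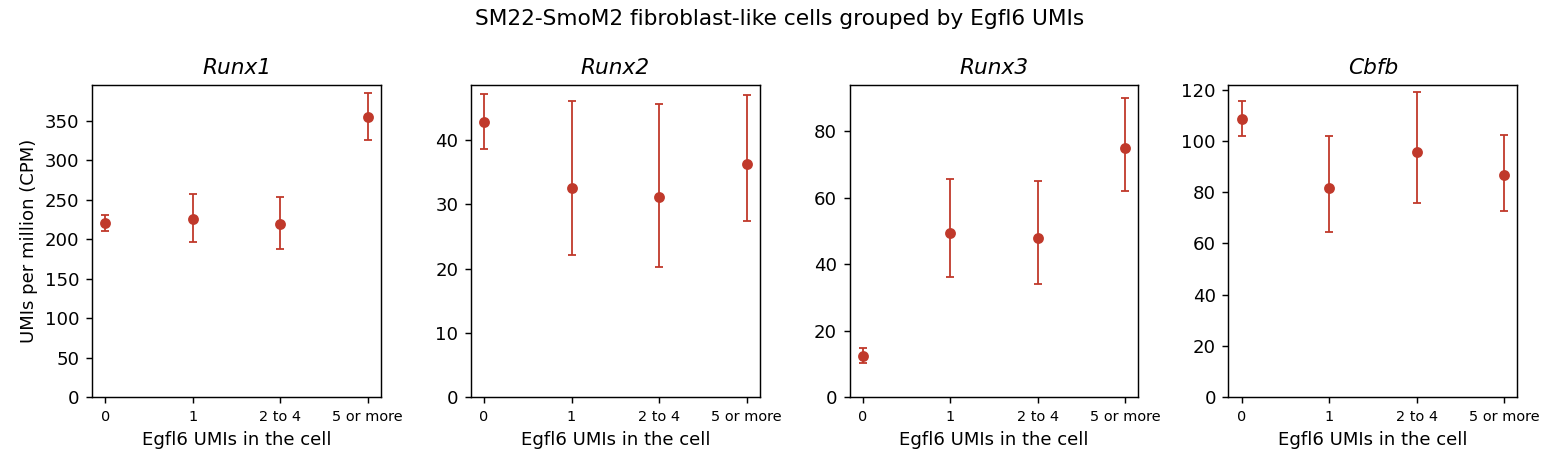
Level of each gene (CPM, y axis) in *SM22-SmoM2* fibroblast-like cells grouped by their *Egfl6* UMIs (x axis), with 95% intervals for counting error. *Runx3* was at 12.4 CPM without *Egfl6* and between 47.8 and 75.1 CPM with it, and *Runx1* was raised in the last group.

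Sub-cluster 6 held 134 of the 310 cells with and 24 of the 788 cells without *Egfl6*. Within sub-cluster 6, *Runx3* was at 108 CPM with and 98.0 CPM without *Egfl6* (log2 ratio 0.14, -0.49 to 0.81), and *Runx1* at 408 and 517 CPM (-0.34, -0.62 to -0.06). Without sub-cluster 6 the *Runx3* ratio was 1.68 (1.20 to 2.16) and the *Runx1* ratio -0.03 (-0.19 to 0.12). The *Runx3* difference between the libraries was likewise reduced without these cells, to 1.90 (1.39 to 2.44) in fibroblast-like cells with no *Egfl6* UMI and 1.59 (1.07 to 2.14) without sub-clusters 6 and 12.

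Since *Runx3* is a gene of immune cells, their markers were counted in the same cells. The 8 immune markers summed to 26.2 CPM in *SM22-SmoM2* fibroblast-like cells with and 27.4 CPM in those without *Egfl6*, against 30520 CPM in immune-like cells. In Hh-active II-like cells they summed to 35.1 CPM, with *Ptprc*, *Cd68* and *Laptm5* at 0 UMIs. Of 7 T and NK cell markers in the gene list, *Cd3d*, *Nkg7* and *Cd2* were at 0 in cells with *Egfl6* and 6 were at 0 in Hh-active II-like cells, the exception being *Thy1*, which fibroblasts also make. Mural markers summed to 175 CPM with and 78.7 CPM without *Egfl6*, cycling markers to 332 and 178 CPM and fibroblast markers to 31074 and 54589 CPM, and their part in the *Runx3* difference was not tested. The Hh-active II-like cells were shallower than the class around them, with a median of 4530.5 UMIs, and their fibroblast markers summed to 10630 CPM against 35843 CPM in Hh-active-like cells and their mural markers to 402 against 104 CPM. The part of these in the *Runx1* and *Runx3* levels was not tested.

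The pooled mice included both sexes, and cells were called male from Y-linked UMIs and female from *Xist*. Of the control fibroblast-like cells 637 were male and 199 female, and of the *SM22-SmoM2* ones 815 and 48. *Runx3* was higher in the *SM22-SmoM2* library in both, at 25.6 against 2.22 CPM in male cells (log2 ratio 3.53, 2.87 to 4.26) and 30.2 against 6.65 CPM in female cells (2.19, 1.04 to 3.31, from 14 and 16 UMIs). *Runx1* was higher in male cells (242 against 168 CPM, 0.52, 0.43 to 0.61) and lower in female cells (106 against 220 CPM, -1.06, -1.51 to -0.63). Of the 48 female *SM22-SmoM2* cells, 25 lay in sub-cluster 5, where *Runx1* was at 108 CPM, and 1 in sub-cluster 6, against 112 and 127 of the 815 male cells. Of the 199 female control cells, 95 lay in sub-cluster 1 and 74 in sub-cluster 2, against 139 and 105 of the 637 male cells. Control cells of these sub-clusters had *Runx1* at 237 and 190 CPM. The part of these mixtures in the *Runx1* ratios was not tested. Mice of 1 sex within a library cannot be told apart.

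*Runx3* and *Runx1* transcripts were often found in the same cell, in shares pooled over sub-clusters. The *Runx3* and *Runx1* levels were both high in sub-clusters 6 (106 and 426 CPM) and 12 (166 and 444 CPM). Both were low in sub-cluster 3 (2.06 and 106 CPM, *SM22-SmoM2* library). Whether they went together within a sub-cluster was not tested. After thinning to 3000 UMIs, *Runx1* was present in 65.8% (54.0 to 76.3) of 76 *SM22-SmoM2* fibroblast-like cells with *Runx3* and in 39.5% (36.4 to 42.6) of 1003 without. The difference was also seen among cells with no *Egfl6* UMI, at 72.7% (54.5 to 86.7) of 33 and 37.6% (34.1 to 41.2) of 739. The intervals overlapped among cells with *Egfl6*, at 60.5% (44.4 to 75.0) of 43 and 44.7% (38.6 to 50.9) of 264, and in the control, at 46.7% of 15 and 37.3% of 1038. For *Runx2* the shares were 9.21% (3.78 to 18.1) and 9.67% (7.91 to 11.7), and *Cbfb* was also spread evenly, with *Runx3* in 7.29% of cells with and 6.95% of cells without it. At least 2 *Runx* genes were seen in 3.99% of 1053 control cells, 9.08% of 1079 *SM22-SmoM2* cells and 33.3% (19.6 to 49.5) of 42 Hh-active II-like cells. All 3 were seen in 6 *SM22-SmoM2* and 0 control fibroblast-like cells.

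Genes known to work with, restrain or follow Runx factors were read from 4 lists, and their counts stand beside 9.87% of all genes past 2-fold between the libraries (5.02% higher) and 6.15% by *Egfl6*. Of 26 measured cofactor genes, 2 were at least 2-fold higher and 1 lower in *SM22-SmoM2* than control fibroblast-like cells, with a median log2 ratio of 0.28 against -0.07 over all genes. The 3 are close to the share of all genes past 2-fold. They were *Cebpb*, a leucine zipper factor (2.27), and the Groucho corepressors *Tle3* (1.08) and *Tle1* (-1.14), followed by *Cbfa2t3* at 0.97. With over without *Egfl6*, *Tle4* (1.49) and *Cbfa2t3* (1.03) were past 2-fold and the median was 0.34 against -0.03. Of 14 measured genes that restrain Runx2, *Hey1*, a Notch target (2.27), and *Trps1*, a repressor found in dermal papilla (1.13), were higher in the *SM22-SmoM2* library and none was 2-fold lower, with a median of 0.12. *Trps1* also serves as a marker of the Hh-active II-like class. In cells with *Egfl6*, *Trps1* (1.74) and *Twist2* (1.34) were higher and *Zfp521* was lower (-1.42).

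Of the 4 lists, the bone list had the most genes past 2-fold between the libraries. The lists were chosen with earlier results of these data known. The limit of 50 UMIs counts both groups together, so a gene high in only 1 of them can enter. Of 12 measured bone and cartilage genes known to lie under Runx2, 6 were at least 2-fold higher and 2 lower in the *SM22-SmoM2* library, with a median log2 ratio of 0.83, against 9.87% of all genes past 2-fold. The higher ones were the bone factor *Sp7* (5.17), the matrix gene *Ibsp* (2.61), the phosphatase *Alpl* (2.17), *Fgfr3* (2.12), *Vegfa* (1.93) and *Fgfr2* (1.21), and the lower ones *Tnfrsf11b* (-2.38) and *Spp1* (-1.95). In the same cells *Runx2* itself differed by 0.51. *Ibsp* and *Alpl* were among the 10 genes with the highest fold in the Hh-active II-like sub-cluster, where *Runx2* was at 41.5 CPM. The list as a whole was not raised there. In Hh-active II-like over Hh-active-like cells, 4 of 10 measured bone genes were at least 2-fold higher and 5 lower. Their median log2 ratio was -0.55 against 0.26 over all genes, of which 29.2% were past 2-fold. The study also uses *Alpl* as a marker of dermal papilla. With over without *Egfl6*, 1 of 12 was higher (*Fgfr2*, 1.23) and 1 lower (*Mmp13*, -2.38). Of 18 blood genes under Runx1 and Runx3, only 4 reached 50 UMIs in fibroblast-like cells, with 0 higher and 1 lower past 2-fold (*Csf1r*, -1.21). With over without *Egfl6*, 2 of 3 were lower (*Zbtb7b*, -1.12, and *Csf1r*, -1.08). In Hh-active II-like over Hh-active-like cells the 1 gene measured, *Cebpa*, a myeloid and fat cell factor, was higher by 4.11 (3.63 to 4.58), at 201 against 11.7 CPM.

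The genes whose levels followed each member most closely were found by Pearson's r of log2(CPM + 10), as a description over classes that share libraries. Over 10 lineage-by-library classes, *Runx1* and *Runx2* both went with *Lgals1* (0.96 and 0.97) and with each other (0.92). *Runx3* went with the heme-degrading enzyme *Hmox1* (0.98), *Slc29a3* and the lymphoid factor *Pou2f2* (both 0.96), and *Cbfb* with *Nme1* (0.99). Over 16 fibroblast-like sub-clusters by library, *Runx3* went with *Tcf7*, a Wnt-pathway factor (0.97), the Wnt antagonist *Frzb* (0.94), *Emid1*, *Sox11* and *Maoa* (all 0.93). *Runx1* went there with *Tsr1* (0.83), *Abhd2*, *Alkbh1*, *1190002N15Rik* and *Ets1* (all 0.82), *Runx2* with *Map4k4* (0.81) and *Cbfb* with *Sh3bgrl* (0.83). The closest genes were sought among 8399 over sub-clusters and among 10601 over lineages. *Runx1* and *Runx3* had an r of 0.62 over these sub-clusters and 0.27 over lineages.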

How the data were processed

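The authors made the deposited UMI counts, whole numbers for each gene in each cell, with Cell Ranger after bcl2fastq from 10x Chromium 3′ v2 libraries against mm10 (GRCm38), without normalization. Versions, annotation and cell calling are not given in the sources used here. Labels and methods differ on the EDTA step (1 h or less) and state the end of doxycycline differently.

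Cells with at least 200 genes and at most 10% mitochondrial UMIs were kept (4648 of 4680). Their totals were 30103855 (control) and 17814222 UMIs. Counts were scaled to 10000 per cell and logged. K-means (50 starts, 20 principal components, 2000 variable genes, without the members, *Egfl6*, the 4 lists and Hh, dermal papilla and Wnt genes) used K = 20 for all cells and 15 for fibroblast-like cells. To be named, a cluster had to show 3 markers of a class at 10 CPM or more and at 1.5 times their median cluster. Doublets were not removed, and Scrublet, at an expected rate of 5%, marked 5 control and 11 *SM22-SmoM2* cells. UMIs of both sexes were present in 5.01% and 2.51% of cells.

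UMIs were summed per class. Intervals are exact Poisson (CPM), exact conditional (ratios) and Clopper-Pearson (shares), at 95%. Ratios across all genes needed 50 UMIs over both groups, and a gene was counted as past 2-fold at that ratio in either direction. Named list genes are the 4 largest ratios per list and comparison among these (further ones of the bone list were named after their values were seen), and likeness used genes with at least 200 UMIs and classes of at least 30 cells. Members and lists were chosen with earlier results of these data known. In a simulation of the fibroblast comparison (10208 genes, 200 changed), intervals held the true ratio for 95% of changed genes. The simulated counts were Poisson, as the intervals assume. This checks the calculation and says nothing of spread between cells, mice or libraries. Tools were Python 3.11.15, numpy 2.4.6, scipy 1.17.1, scikit-learn 1.9.0 and scanpy 1.11.5. Alternatives were other mitochondrial filters, doublet removal, clusterings, thinning, per-cell means, sexes and sub-cluster exclusions.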

Additional observations from a re-analysis of the deposited data

Results flagged for a closer look

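*Runx1* differed in direction between the sexes within 1 pair of libraries. The log2 ratio of *SM22-SmoM2* over control fibroblast-like cells was 0.52 in cells called male and -1.06 in cells called female, with intervals on opposite sides of 0. The difference itself was not tested, since each library is 1 pool of mice. The female *SM22-SmoM2* value rests on 49 *Runx1* UMIs in 48 cells, 52.1% of which lay in sub-cluster 5. Of the female control cells, 47.7% lay in sub-cluster 1, against 21.8% of the male ones. The part of these mixtures in the difference was not tested.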

How the results depend on the processing

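No paired analysis was possible because each condition is 1 library, and leaving out a replicate was likewise not possible. *Runx3* was higher in *SM22-SmoM2* than control fibroblast-like cells under 18 of 18 alternatives, with log2 ratios of 0.76 to 4.75. The lowest held 0 in its interval and was pooled over unlike mixtures of sub-clusters. The highest rests on 2 control UMIs left after thinning to 1500 UMIs. That thinning was a random draw separate from the one behind the thinned shares of cells in the Results, so the values of the draws differ. The cause of each shift below was not tested. Where an alternative leaves out the cells with the highest levels, a lower ratio follows from that choice. The alternatives by sub-cluster number, outside the Hh-active classes, with mixed sub-clusters kept or with levels in Leiden classes were chosen after seeing the data. All values here are log2 ratios unless a unit is given. Clustering anew also changed the cells left out as mixed, which were 57 control and 2 *SM22-SmoM2* cells in the main run. They were 174 and 2 with a 5% mitochondrial filter, 204 and 168 without one, and 201 and 167 without Scrublet doublets. For *SM22-SmoM2* over control fibroblast-like cells, *Runx1* was 0.48 with a 5% mitochondrial filter, 0.64 without one, 0.64 without Scrublet doublets, 0.52 in male and -1.06 in female cells, 0.28 without *Egfl6*, 0.19 without sub-clusters 6 and 12 and 0.49 outside the Hh-active classes and sub-cluster 9. *Runx2* was 0.19 when thinned to 1500 UMIs and 0.075 in female cells. *Runx3* was 4.75 when thinned (56 against 2 UMIs), 3.53 in male and 2.19 in female cells, 1.58 without the 4 cycling sub-clusters (5, 6, 7 and 9), 1.90 without *Egfl6*, 1.62 outside the Hh-active classes, 0.76 outside these and sub-cluster 9, and 1.59 without sub-clusters 6 and 12. *Cbfb* was -0.13 in female cells. For cells with over without *Egfl6*, *Runx1* was 0.15 when thinned, -0.84 in female cells, 0.48 with 2 or more *Egfl6* UMIs, 0.56 in Hh-active-like cells, -0.34 within sub-cluster 6 and -0.034 without it. *Runx2* was -2.03 when thinned (5 against 52 UMIs), -0.69 when split after thinning to 3000 UMIs and 1.44 within sub-cluster 6. *Runx3* was -0.58 in female cells (2 against 12 UMIs), 1.55 when split after thinning, 0.14 within sub-cluster 6 and 1.68 without it. *Cbfb* was -0.59 when thinned and 0.25 in female cells. For fibroblast-like over other lineages in the control, per-cell means gave 0.60 for *Runx1*, 0.90 for *Runx2* and 0.40 for *Cbfb*, thinning gave 0.63 for *Runx1*, -2.27 for *Runx3* and 0.39 for *Cbfb*, male cells gave -0.22 for *Runx3*, and female cells 1.10 for *Runx1* and 0.88 for *Cbfb*. In the *SM22-SmoM2* library, *Runx1* was 1.29 without a mitochondrial filter, 1.32 without Scrublet doublets, 0.99 by per-cell means and -0.051 in female cells. *Runx2* was 0.77 when thinned and 0.57 in female cells, *Runx3* was 2.03 by per-cell means, 2.82 when thinned and 2.33 in female cells, and *Cbfb* was 0.062 when thinned. Without a mitochondrial filter, levels were 169 and 263 CPM for *Runx1* and 29.7 CPM for *Runx3* in *SM22-SmoM2* fibroblast-like cells. In the Hh-active II-like class of the Leiden clustering, *SM22-SmoM2* levels were 298 CPM for *Runx1* and 84.5 CPM for *Runx3*. At 3000 UMIs, shares of fibroblast-like cells with a UMI were 37.4 and 41.3% for *Runx1*, 8.45 and 9.64% for *Runx2*, 1.43 and 7.04% for *Runx3*, and 26.5 and 26.7% for *Cbfb*. With at least 200 UMIs per gene, fewer genes were past 2-fold, namely 628 between the libraries in fibroblast-like, 48 in endothelial-like, 66 in Schwann-like, 28 in mural-like and 52 in immune-like cells, 263 by *Egfl6* and 508 between cells without *Egfl6*, 1672 against other *SM22-SmoM2* lineages, and 580 and 1030 for the Hh-active-like and Hh-active II-like steps. The *Runx3* ratio between the libraries rests on 44 control UMIs.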

Other observations

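Within the other lineages, *Runx1* varied between endothelial-like clusters in the same way in both libraries. Of the endothelial-like clusters, number 13 had *Runx1* at 75.3 CPM (62.6 to 89.8) in 97 control and 74.9 CPM (55.4 to 99.0) in 49 *SM22-SmoM2* cells. The other two, numbers 2 and 8, had 17.3 and 17.3 CPM, and 5.96 and 6.41 CPM. Cluster 13 was also deeper, with a median of 15479 control UMIs against 8453 and 9435, and it carried the mural gene *Rgs5* at 2499 and 2728 CPM against 152 CPM or less in clusters 2 and 8. The part of mural RNA in its *Runx1* level was not tested.

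In Schwann-like cells, *Runx2* was at 28.7 and 31.6 CPM in cluster 5 and at 34.3 and 39.2 CPM in cluster 6. Cluster 12 had 5.21 CPM (1.42 to 13.4) and 10.6 CPM (2.18 to 30.9), from 4 and 3 UMIs, the *SM22-SmoM2* interval overlapping those of the other clusters, and *Runx1* at 202 and 144 CPM. The cycling cluster 15, with *Mki67* at 141 and 104 CPM, had *Runx2* at 18.6 and 18.3 CPM and *Cbfb* at 170 and 150 CPM. In fibroblast-like cells of the control, *Cbfb* was at 137 CPM (116 to 161) in sub-cluster 9 and 80.2 CPM (69.1 to 92.6) in sub-cluster 7, which both had 5 of 5 cycling markers raised.

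Keratinocyte-like cells were too few for a comparison, with 15 in the control and 1 in the *SM22-SmoM2* library. In the control they had *Runx1* at 184 CPM (138 to 240), from 54 UMIs, and *Runx3* at 10.2 CPM, from 3 UMIs in 1 cell.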
